A study of Arabidopsis thaliana with 12 samples.

Results

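Plant mitochondria keep a small genome of their own, and the transcripts of its protein genes are described here in Arabidopsis thaliana seedlings of 2 genotypes germinated in 2 media. Members were all rows of the deposited count tables whose identifier begins with DA397_mgp, the prefix of mitochondrial protein genes in the RefSeq annotation, which gave 30 genes of the 20780 listed in either table. Of these, 26 stood in the tables of both genotypes, and nad3, nad6, rps7 and 1 of the 2 atp6 genes stood in the atg5 table alone. The annotation holds 33 such protein genes, and the remaining 3, ccmC, ccmFN2 and mttB, were not analysed here. All 30 listed genes are annotated as protein-coding genes of the mitochondrial genome, so the label fits the rows.

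Seedlings were either atg5, the T-DNA insertion line SALK_020601C of the autophagy gene ATG5, or Col-0 wild type (WT). Seeds germinated for 5 days in flasks, either in a water stress medium (WSM) with 2.5% glycerol and 0.5% alginic acid or in normal medium (NM) without them, and both media held 0.5X Murashige salts and 0.5% sucrose. Of 12 labelled samples 10 have a count column used here: 3 atg5 WSM, 2 atg5 NM, 2 WT WSM and 3 WT NM libraries, each named by group and by the number in its column. The labels do not say whether replicates came from separate cultures, so p-values describe only how much these libraries varied, and that variation may be technical.

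Mitochondrial DNA encodes core subunits of the respiratory chain complexes and of ATP synthase, proteins for attaching heme to cytochrome c, some ribosomal proteins and a maturase, while most other mitochondrial proteins are made from nuclear genes. In plants the transcripts are completed after transcription: chosen cytidines are edited to uridines, and several genes have introns, some of which join exons transcribed from distant places (trans-splicing). Autophagy degrades organelles in the vacuole, mitochondria among them.

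Library totals ran from 8928632 to 24022759 counts, of which 19.0% to 65.6% fell in 31 genes of the rRNA regions. CAB1, a light-harvesting protein of green tissue, stood at 3351 to 10291 CPM (depth-scaled counts, here with TMM factors), and CASP1, a protein of the root endodermis, at 18.2 to 46.5 CPM, so shoot and root transcripts were present in every library. ATG5 (AT5G17290) had 161 to 798 counts in the atg5 libraries and 354 to 806 in WT; reads on either side of an insertion are counted too, so this does not check the genotype labels. The atg5 libraries differed in PREP1, which encodes an organellar presequence protease: the counts were 349, 4 and 2412 in atg5 WSM libraries 1, 2 and 3, 2 and 0 in atg5 NM libraries 1 and 3, and 753 to 2668 in WT. Its split within atg5 WSM cannot be told apart from other differences between those libraries. Both atg5 NM libraries were low, so the PREP1 difference also falls between the media in atg5 and between the genotypes. In those comparisons it cannot be fully told apart from medium or genotype, and its part was not tested. In these whole seedlings, fewer mitochondria-rich cells and less mitochondrial RNA per cell cannot be told apart.

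What the transcripts must undergo can be read from their genes. RefSeq marks 500 edited cytidines in the coding sequence of the 30 listed genes, and 29 of the 30 have at least 1; cox1 has 0. The densest gene is ccmB, with 51 sites or 82.1 per kb of coding sequence. The stretch below (TAIR10.1, mitochondrial genome, 18218 to 18307, minus strand) holds 15 of them in 90 bases, and capitals mark each edited C. It is shown because a read of the edited transcript differs from the reference genome at each of these places, and the number of mismatches that the authors' alignment allowed is not given in the sources used here.
ccmB: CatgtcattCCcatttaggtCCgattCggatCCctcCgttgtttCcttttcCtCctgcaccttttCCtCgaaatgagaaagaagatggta

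The next 3 stretches belong to nad1, whose start codon is itself made by editing and whose first 2 exons lie on opposite strands of the genome, at 82937 to 83321 (minus) and 58315 to 58397 (plus). Capitals mark edited Cs in the first 60 coding bases and all bases of exon 2 in the last line. A read across the joined end of exon 1 and start of exon 2 matches no contiguous place in the genome, and Bowtie2, which the submitters' processing notes name, does not align across introns.
nad1 start: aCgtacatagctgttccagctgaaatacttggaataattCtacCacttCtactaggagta
nad1 exon 1 end: atggaattattatagcgggtcggtctagta
nad1 exon 2 start: ATTCGAAATATGCCTTTCTAGGAGCATTAC

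Many member reads can also come from, or be placed on, chromosome 2, which carries a long insertion of mitochondrial DNA. Of the 30 listed genes, 15 have every 75-base window of their exons on chromosome 2 too, and 5 (ccmB, atp4, nad4L, cox1 and nad9) have no window anywhere else. The neighbouring genes nad3 and rps12 are an example: the 780 bases from the start of nad3 (288044) to the end of rps12 (288823) recur letter for letter on chromosome 2, at 3270008 to 3270787. Their first 60 bases are shown for both places, with the 2 edited Cs of nad3 in capitals.
nad3: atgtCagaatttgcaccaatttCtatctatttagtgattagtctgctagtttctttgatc
nad3 copy on chromosome 2: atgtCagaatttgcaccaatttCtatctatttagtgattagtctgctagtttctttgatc
rps12: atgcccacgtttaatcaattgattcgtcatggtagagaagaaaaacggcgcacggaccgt
rps12 copy on chromosome 2: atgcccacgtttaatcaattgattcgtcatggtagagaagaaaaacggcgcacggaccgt

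Overlap also occurs within the set. The last 134 coding bases of rps3 are the first 134 of rpl16 (23285 to 23418, plus strand), and a read in this stretch cannot be given to either gene alone. Capitals mark the start codon of rpl16 and the stop codon of rps3.
rps3 and rpl16: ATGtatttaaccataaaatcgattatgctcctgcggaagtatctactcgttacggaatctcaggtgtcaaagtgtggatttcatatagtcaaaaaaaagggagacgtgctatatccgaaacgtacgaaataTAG
The 2 atp6 genes, on the minus and the plus strand, have unlike starts and then 761 identical bases, and the 60 bases around the point where they become alike are given here with the shared part in capitals.
atp6 of the minus strand: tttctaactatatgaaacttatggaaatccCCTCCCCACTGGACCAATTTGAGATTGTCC
atp6 of the plus strand: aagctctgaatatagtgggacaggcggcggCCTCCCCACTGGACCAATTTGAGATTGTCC

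The members together were a small share of each library. Of the counts outside the rRNA regions, the 26 genes in both tables held 0.0689%, 0.0652% and 0.0452% in atg5 WSM libraries 1, 2 and 3, and 0.152% and 0.0186% in atg5 NM libraries 1 and 3. They held 0.0957% and 0.0380% in WT WSM libraries 3 and 4, against 0.0297%, 0.0273% and 0.0184% in WT NM libraries 2, 3 and 4. The 2 WT media did not overlap, while in atg5 the 3 WSM libraries lay between the 2 NM libraries. Exact 95% binomial intervals were narrow beside these differences, for example 0.150% to 0.154% in atg5 NM library 1, and cover counting error only.

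Other organelle transcripts differed in the same direction as the members between the 2 atg5 NM libraries and between the WT media, but not in every group. The 2 mitochondrial rRNAs rrn18 and rrn26, themselves among the rRNA-region genes, had counts equal to 3.29% of those outside the regions in atg5 NM library 1 and 0.677% in library 3, and 3.46% and 1.39% in WT WSM libraries 3 and 4 against 0.543% to 1.25% in WT NM. The 78 plastid protein genes held 1.20% and 0.0665% in atg5 NM libraries 1 and 3, and 1.21% and 0.406% in WT WSM against 0.122% to 0.227% in WT NM. Within atg5 WSM the order was not that of the members. In libraries 1, 2 and 3 the rRNAs stood at 2.38%, 1.04% and 1.44%, and the plastid genes at 0.492%, 0.708% and 0.501%. Within WT NM the plastid genes were highest in library 3 and the members in library 2. Members had 2.37 to 6.26 counts per 100 mitochondrial rRNA counts, with atg5 WSM library 2 at the top and WT NM library 2 at the bottom. The mRNA kit named in the labels enriches polyadenylated RNA, and neither its part in these shares nor that of the rRNA and plastid shares in the results for the members was tested.

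**Figure D1:**
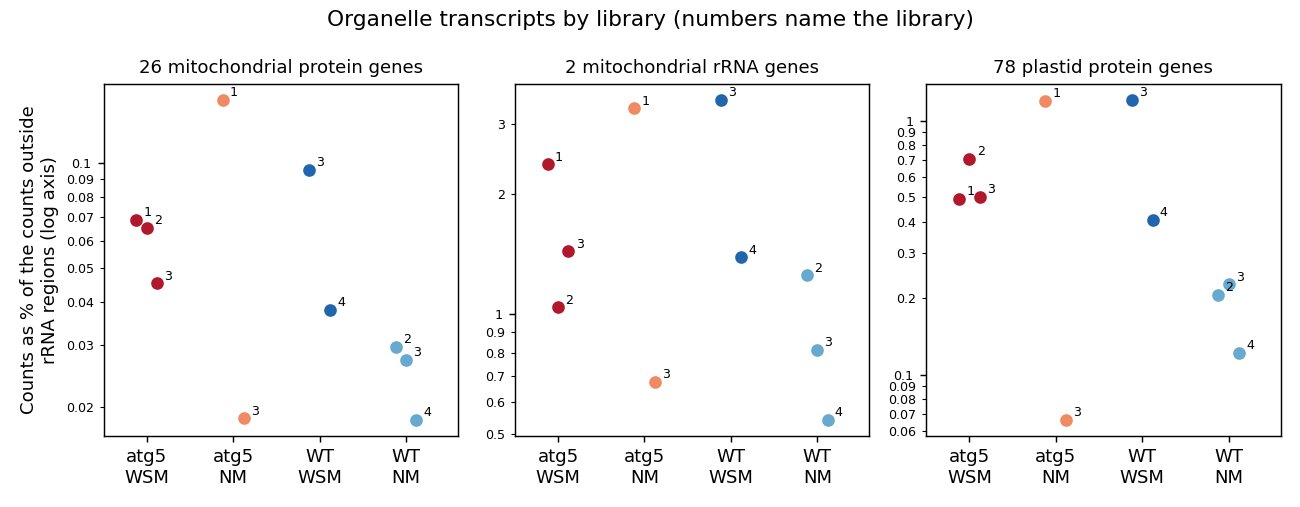
Counts as a percent of the counts outside the rRNA regions (log axis) of the 26 mitochondrial protein genes, the 2 mitochondrial rRNA genes and the 78 plastid protein genes; each point is a library, named by its number. For the protein genes atg5 NM library 1, at 0.152%, is highest and atg5 NM library 3, at 0.0186%, lies near the bottom of the same panel.

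Levels per length differed widely among the members. Averaged over the 10 libraries, atp9 stood highest at 42.0 CPM per kb of coding sequence, followed by rpl16 at 41.4, rps3 at 31.9, atp1 at 30.1 and nad7 at 22.1. These 5 ranges overlapped widely between libraries, with atp9 at 11.4 to 106 and nad7 at 7.59 to 55.6 CPM per kb. The mean leans on the libraries with high levels, and the order differed between groups: rps12 was highest in atg5 NM at 77.2, rpl16 in WT WSM at 57.7 and atp9 in atg5 WSM and WT NM at 55.2 and 25.9 CPM per kb. Lowest were ccmFN1 at 1.27, the plus-strand atp6 at 1.45 and ccmFC at 2.31 CPM per kb. The number of edited sites per kb did not line up with this order (Spearman's rho = -0.00103 over 26 genes, which share libraries and are not independent).

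By summed CPM over all libraries, ribosomal protein genes made up 35.0% of the set, complex I genes 28.9%, ATP synthase genes 21.5%, complex IV genes 9.55%, cytochrome c maturation genes 2.01%, matR 1.84% and cob 1.19%. These shares rest on the same assigned counts and also lean on the high libraries. Complex I genes summed above ribosomal protein genes in atg5 WSM library 1, atg5 NM library 3 and WT NM libraries 2 and 3. In atg5 WSM libraries 1, 2 and 3 the 6 ribosomal protein genes summed to 119, 166 and 105 CPM, and in atg5 NM libraries 1 and 3 to 304 and 27.1 CPM. In WT they summed to 177 and 78.7 CPM in WSM, against 37.8, 46.4 and 36.4 CPM in NM. The 7 complex I genes summed to 139 and 72.4 CPM in WT WSM, against 62.2, 51.1 and 35.7 CPM in WT NM, so the WT media did not overlap for either sum.

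**Figure D2:**
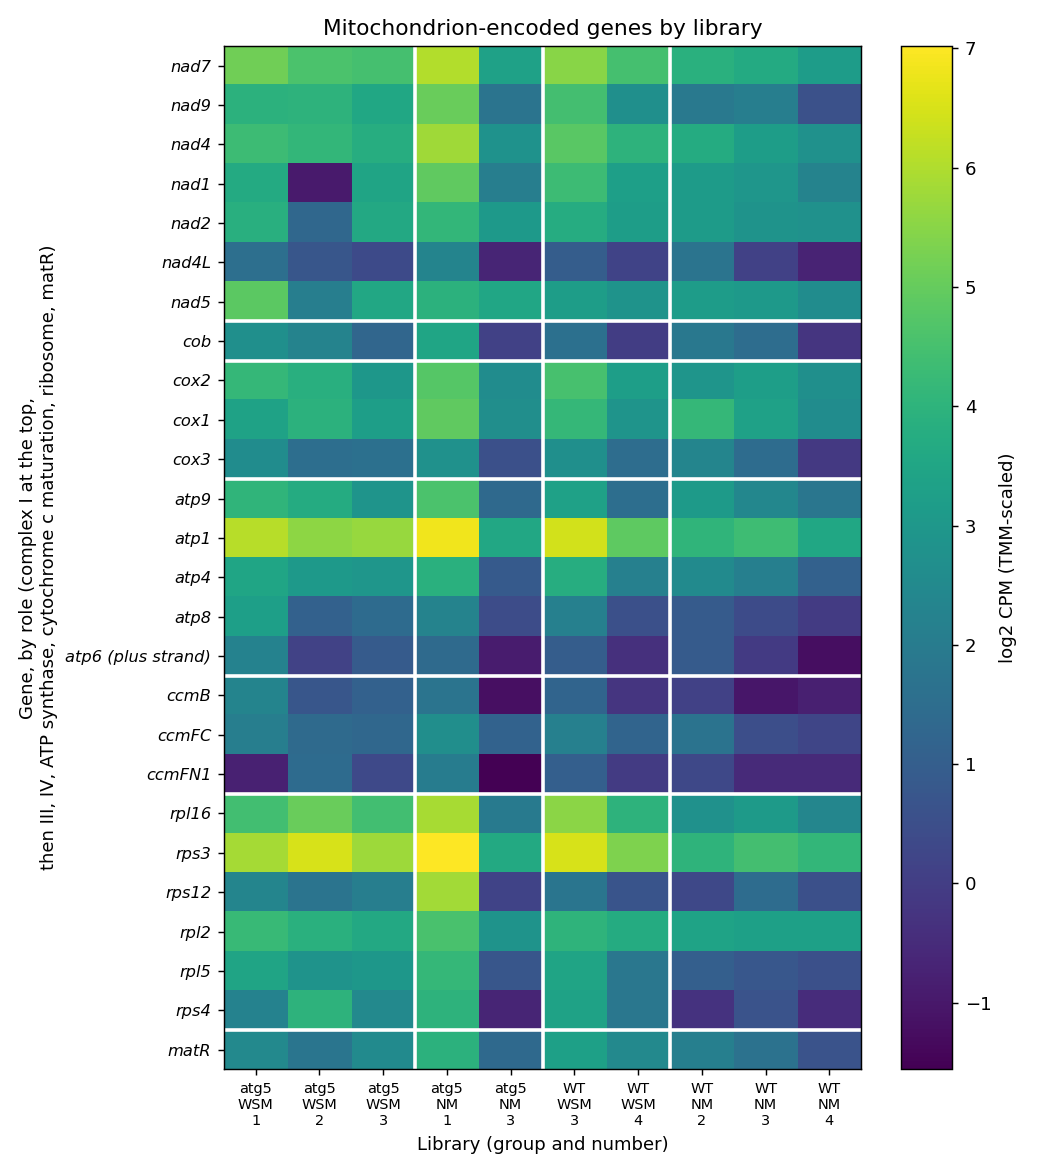
Level (log2 CPM, TMM-scaled) of the 26 genes, in rows by role, in the 10 libraries, in columns by group. The column of atg5 NM library 1 holds the highest value for 21 of 26 genes, WT NM library 4 the lowest for 13 and atg5 NM library 3 the lowest for 10.

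In WT, the question was how the medium related to these transcripts. No member passed the test of the fit that uses all 10 libraries: 0 of 26 were higher and 0 lower in WSM at a Benjamini-Hochberg adjusted p under 0.05 (edgeR quasi-likelihood F test over 19714 genes), where 3.27% of all genes were higher and 2.62% lower. At an unadjusted p under 0.05, 7 of 26 were higher and 0 lower, beside 11% and 11.6% of all genes. DESeq2 called 1 member higher, rpl5, and 0 lower, beside 5.07% and 5.96% of all genes. The point estimates were mostly positive: 24 of 26 log2 fold changes were above 0, beside 51.3% of all genes, with a median of 1.05 beside 0.02 for all genes. For 13 of 26 members the WSM libraries lay above all NM libraries, beside 28.8% of all genes, and for 0 they lay below all of them, beside 28.0%.

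Among the ribosomal protein genes the WT estimates ran from 0.42 to 2.73. rps3, a protein of the small ribosomal subunit, stood at 89.7 and 40.9 CPM in WT WSM libraries 3 and 4, against 16.1, 21.8 and 17.6 CPM in WT NM libraries 2, 3 and 4. The log2 fold change was 1.82 ± 0.67 (SE; edgeR adjusted p = 0.137). rpl16, a protein of the large subunit whose gene overlaps rps3, stood at 46.6 and 15.8 CPM in WSM, against 6.87, 8.6 and 5.20 CPM in NM, a log2 of 2.18 ± 0.78 (edgeR adjusted p = 0.126). rps4, of the small subunit, had the largest estimate of the set, 2.73 ± 0.99 (edgeR adjusted p = 0.130), at 10.4 and 3.56 CPM in WSM, against 0.818, 1.56 and 0.727 CPM in NM. For these 3 genes WSM library 3 was higher than library 4, and both lay above every NM library. rpl5 had 2.06 ± 0.74 (edgeR adjusted p = 0.129), while rpl2 and rps12 had 0.53 ± 0.39 and 0.42 ± 1.05.

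Genes of ATP synthase were not alike in WT. atp1, the catalytic-head subunit alpha, stood at 86.0 and 29.9 CPM in WSM, against 16.8, 20.5 and 11.7 CPM in NM, a log2 of 1.83 ± 0.68 (edgeR adjusted p = 0.140). atp9, the subunit of the membrane ring, had 10.2 and 2.93 CPM in WSM, against 8.67, 5.32 and 3.48 CPM in NM, so its groups overlapped, and its log2 was 0.19 ± 0.77. atp4 and atp8, of the peripheral stalk and the membrane part, had 1.16 ± 0.70 and 1.12 ± 0.75, and the plus-strand atp6, the proton channel subunit, 0.40 ± 0.84, all with overlapping groups.

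Complex I, which takes electrons from NADH, gave the same mixture. nad7, a subunit of its peripheral arm, stood at 44.8 and 22.5 CPM in WT WSM, against 14.97, 12.8 and 8.99 CPM in WT NM, a log2 of 1.46 ± 0.58 (edgeR adjusted p = 0.164). nad9, of the same arm, had a log2 of 2.16 ± 0.77, and the membrane subunit nad4 one of 1.18 ± 0.61. The membrane subunits nad5 and nad4L lay near no difference, at 0.06 ± 0.56 and -0.07 ± 0.85, with overlapping groups.

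Among the remaining roles, cob, the cytochrome b of complex III, had 3.03 and 1.00 CPM in WT WSM, against 3.68, 2.83 and 0.842 CPM in WT NM, a log2 of -0.26 ± 0.89. cox1, the catalytic subunit of complex IV, had 17.9 and 7.39 CPM in WSM, against 17.7, 10.3 and 6.16 CPM in NM, a log2 of 0.16 ± 0.60, while cox2 had a log2 of 1.05 ± 0.55 without overlap of the groups. ccmFC, of the heme attachment machinery, had 4.48 and 2.30 CPM in WSM, against 3.27, 1.42 and 1.19 CPM in NM. matR, a maturase for intron splicing encoded inside an intron of nad1, had 9.93 and 5.64 CPM in WSM, against 4.42, 3.22 and 1.57 CPM in NM, a log2 of 1.37 ± 0.63 without overlap. The members not yet given had WT log2 estimates of 0.73 ± 0.72 (cox3), 0.58 ± 0.56 (nad2), 1.06 ± 0.93 (nad1), 1.19 ± 0.81 (ccmB), 0.83 ± 0.57 (ccmFC) and 0.83 ± 0.85 (ccmFN1).

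**Figure D3:**
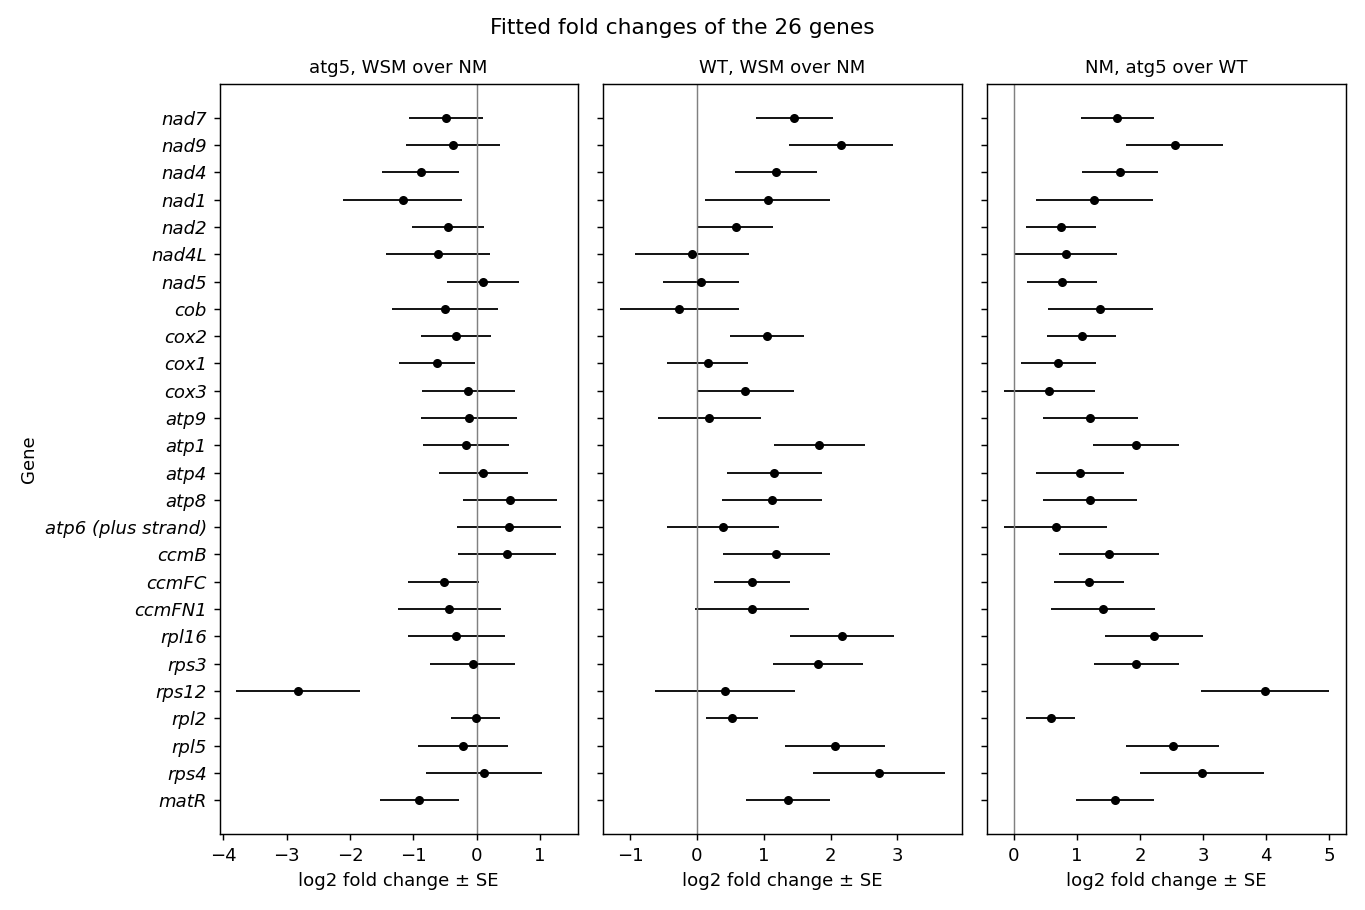
Fitted log2 fold change of each of the 26 genes with its SE (horizontal bars), for WSM over NM in atg5, WSM over NM in WT, and atg5 over WT in NM. In WT 24 of 26 estimates lie above 0, in atg5 6 of 26, and rps12 stands apart at -2.82 in atg5.

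Whether WT members were called depended on which libraries set the spread. When the WT libraries alone were fitted, 12 of 26 members were higher in WSM and 0 lower (edgeR, adjusted p under 0.05), beside 14.1% and 15.3% of all genes. In that fit rps3 had an adjusted p of 0.000391, rpl16 of 0.000888, rps4 of 0.00104, nad7 of 0.00187, atp1 of 0.00213 and rpl5 of 0.00271 (edgeR). The authors' deposited table for WT, made with DESeq2, called 11 members higher and 0 lower, beside 12.3% and 14.9% of its rows, and all 11 were among the 12. The twelfth was rpl2. In the fit of all libraries, atg5 NM libraries 1 and 3 differ most for these genes. Leaving out either lowered the SE of rps3 in WT from 0.67 to 0.34, at an unchanged log2 of 1.82. The size of the WT estimates rested on WT WSM library 3: without it the members' median log2 was 0.28, and without library 4 it was 1.51. With the level of the mitochondrial rRNAs as a covariate the median turned to -0.31 and 0 members were called, beside 1.6% of all genes higher and 0.35% lower.

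In atg5 the comparison of media gave a different arrangement. Of 26 members 0 were called in either direction (edgeR), beside 5.22% of all genes higher and 2.64% lower; at an unadjusted p under 0.05, 0 were higher and 1 lower, beside 13.6% and 11.6%. DESeq2 called 0, beside 8.54% and 4.97%, and so did the fit of the atg5 libraries alone, beside 1.58% and 0.0406%. The median log2 was -0.33, beside -0.02 for all genes, and 6 of 26 estimates were above 0, beside 48.4%. For 0 members did the media fail to overlap, beside 16.2% of all genes above and 16.6% below. rps3 stood at 58.7, 91.3 and 53.7 CPM in atg5 WSM libraries 1, 2 and 3, and at 130 and 12.7 CPM in atg5 NM libraries 1 and 3. atp1 stood at 68.8, 47.4 and 51.9 CPM in WSM, and at 113 and 12.1 CPM in NM. nad7 stood at 35.5, 24.3 and 22.3 CPM in WSM, and at 65.9 and 10.1 CPM in NM. For these genes, as for 19 of 26 members, all 3 WSM libraries lay between the 2 NM libraries, an arrangement found for 6.50% of all genes when either NM library may be the higher.

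The 2 atg5 NM libraries stood far apart for this set. Library 1 over library 3 gave a median ratio of 7.80 over the 26 members, with 1.34 for nad5 as the lowest and 51.3 for rps12 as the highest. At least a 4-fold excess was seen for 21 of 26 members, beside 1.22% of all genes, whose median ratio was 1.02. Within WT WSM the ratio of library 3 over library 4 had a median of 2.36. It reached 2-fold for 18 of 26 members, beside 3.26% of all genes, and 4-fold for 0, beside 0.172%. Within WT NM library 2 over library 4 had a median of 1.85 and reached 4-fold for 4 members, beside 0.345% of all genes. Without atg5 NM library 1 the members' median log2 for WSM over NM was 1.81, with rps3 at 2.42, rpl16 at 2.70, atp1 at 2.21 and rps4 at 3.82. Without library 3 the median was -1.05, with rps12 at -3.79 and nad4 at -1.71. With a single NM library left, the spread of that group cannot be estimated, so calls from these fits are not given. The direction of the atg5 comparison was therefore set by a single library.

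Across the 25 members other than rps12, those with a larger WT log2 for WSM over NM also tended to have a larger log2 of atg5 NM library 1 over library 3 (Pearson r = 0.56, Spearman's rho = 0.51, and 0.38 and 0.40 with rps12). These 2 quantities share no library, but genes of 1 genome, with shared reads, are not independent points.

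Between the genotypes in NM, 0 of 26 members were called (edgeR), beside 0.0913% of all genes higher in atg5 and 0.0558% lower. DESeq2 called rps12 and rpl5 higher and 0 lower, beside 1.58% and 1.61%, and the fit of the NM libraries alone called 0, beside 0.53% and 0.693%. At an unadjusted p under 0.05, 10 of 26 were higher and 0 lower, beside 8.12% and 5.82% of all genes. All 26 estimates were above 0, beside 52.5% of all genes, with a median log2 of 1.33 beside 0.03. Yet nad5, at 15.4 and 11.5 CPM in atg5 NM libraries 1 and 3 against 9.16, 8.55 and 6.08 CPM in WT NM, was the single member whose groups did not overlap, beside 18.9% of all genes above and 19% below. Without atg5 NM library 1 the median log2 was -0.59, and without library 3 it was 2.16. This comparison too turned on which of the 2 libraries was kept.

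In WSM no difference between the genotypes was called. Of 26 members 0 passed in either direction with edgeR, beside 0.00507% of all genes higher in atg5 and 0.0304% lower, and 0 with DESeq2, beside 1.46% and 0.321%. At an unadjusted p under 0.05 there were 0 too, beside 8.17% and 3.83%. The median log2 of atg5 over WT was 0.03 for the members and 0.03 for all genes, and 14 of 26 estimates were above 0, beside 52.2%. For 0 members did the groups fail to overlap, beside 13.6% above and 13.8% below. rps3 averaged 67.9 ± 20.4 CPM in atg5 WSM (SD, n = 3) and 65.3 ± 34.5 CPM in WT WSM (SD, n = 2), and atp1 56.0 ± 11.3 and 58.0 ± 39.7 CPM in the same groups. The estimates had SEs of 0.39 to 1.05 on the log2 scale, and differences of several SE could go uncalled. In the same fit rps12 was not called between the genotypes in NM, at a log2 of 3.98 ± 1.02 (edgeR adjusted p = 0.141).

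The difference of the WSM responses, atg5 minus WT, had a median log2 of -1.30 over the members, beside 0.02 for all genes. Of 26 estimates 2 were above 0, beside 50.9% of all genes. None was called by edgeR, beside 0 of all 19714 genes, or by DESeq2, beside 1.5% higher and 0.894% lower; at an unadjusted p under 0.05, 7 of 26 members were lower and 0 higher, beside 7.07% and 8% of all genes. This difference uses the same 2 atg5 NM libraries, and without library 1 its median was 0.57. With mitochondrial rRNA as a covariate it was 0.24.

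rps12 and nad3, which lie next to each other, stood out by the size of their excess in atg5 NM library 1. Over the 10 libraries the log2 CPM of rps12 still correlated with the mean log2 CPM of the other members at r = 0.82. For rps12, of the small ribosomal subunit, the counts were 26, 101 and 109 in the 3 atg5 WSM libraries and 1709 and 23 in atg5 NM libraries 1 and 3, against 15 to 66 counts in the 5 WT libraries. As a level that is 57.2 CPM in atg5 NM library 1 and 1.12 to 5.12 CPM in the other 9 libraries, or 7.24% of the summed CPM of the members in that library, against 0.676% to 1.73% in the others. nad3, a small membrane subunit of complex I listed for atg5 alone, had 2, 25 and 26 counts in the WSM libraries and 506 and 6 counts in NM libraries 1 and 3. The authors' deposited table called nad3 lower in atg5 WSM, at a log2 of -3.44 with an adjusted p of 0.0498, while edgeR on the same 5 libraries gave -3.34 ± 1.16 and an adjusted p of 0.255. The excess of atg5 NM library 1 thus covered both neighbours, whose sequences are shown above. Their chromosome 2 copies had 1728 counts (rps12) and 476 counts (nad3) in that library. Because the copies are identical letter for letter, their reads cannot be told apart from those of the members. The counts of the copies are therefore no separate observation.

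Of the other 3 genes listed for atg5 alone, rps7 and nad6 had their WSM libraries between the NM libraries in CPM, and the minus-strand atp6 did not. rps7, of the small ribosomal subunit, had 7, 41 and 25 counts in the atg5 WSM libraries and 82 and 3 in the NM libraries. nad6, a membrane subunit of complex I, had 3, 62 and 24 counts in WSM and 108 and 1 in NM. The minus-strand atp6 had 14, 30 and 40 counts in WSM and 69 and 6 in NM, which scale to 2.76, 0.987 and 1.57 CPM in WSM and 2.31 and 0.291 CPM in NM, so WSM library 1 was highest. Their edgeR adjusted p on the 5 atg5 libraries were 0.951, 0.891 and 0.882.

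The 3 genes with trans-spliced transcripts, nad1, nad2 and nad5, were the members least like the others. Their log2 CPM correlated with the mean log2 CPM of the other members at r = 0.41, 0.47 and 0.46 over the 10 libraries, whereas nad7, atp1 and atp4 stood highest at 0.98, 0.96 and 0.96; these points share library and scaling. nad1 had 12.8, 0.527 and 10.9 CPM in atg5 WSM libraries 1, 2 and 3 and 30.04 and 4.32 CPM in atg5 NM libraries 1 and 3, against 4.82 to 19.96 CPM in WT. In counts, atg5 WSM library 2 had 16 for nad1, against 277 in library 3 with a similar depth. Relative to the mean log2 CPM of the other members, nad1 stood at -3.78 in atg5 WSM library 2 and at 0.301 to 1.10 elsewhere. The r of nad1 therefore leans on atg5 WSM library 2, and r without that library was not computed. nad2 had 14.6, 2.47 and 12.2 CPM in the WSM libraries and 17.4 and 8.30 CPM in the NM libraries. nad5 had 28.97, 4.28 and 11.9 CPM in WSM and 15.4 and 11.5 CPM in NM. All 3 were lowest of the 10 libraries in atg5 WSM library 2, whose other complex I genes were not low: nad7 had 24.3 CPM and nad4 17.2 CPM there.

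The summed CPM of nad1, nad2 and nad5 over that of nad4, nad4L, nad7 and nad9 shows the same thing. It was 0.763, 0.123 and 0.713 in atg5 WSM libraries 1, 2 and 3 and 0.394 and 1.15 in atg5 NM libraries 1 and 3. In WT it was 0.445 and 0.570 in WSM, against 0.767, 0.858 and 0.985 in NM, again without overlap. matR, which lies in an intron of nad1, had 3.43 CPM in atg5 WSM library 2, against 5.52 and 5.85 CPM in atg5 WSM libraries 1 and 3. Relative to the mean log2 CPM of the other members, matR stood at -0.962, -0.975 and -0.247 in libraries 1, 2 and 3. Its relative level in library 2 was thus close to that in library 1.

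**Figure D4:**
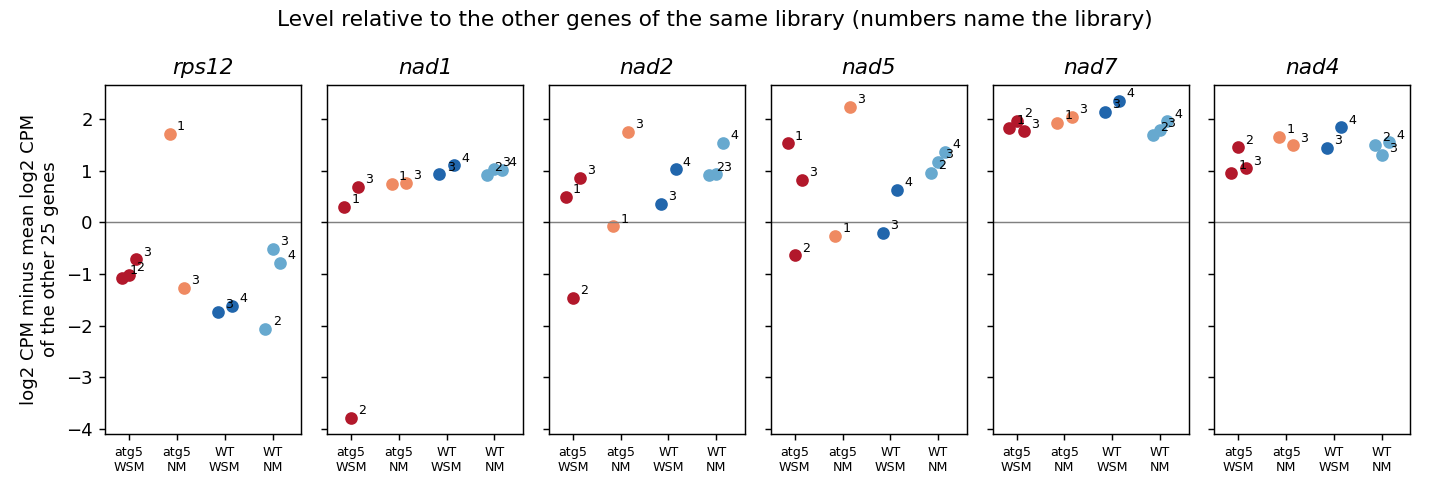
Level of 6 genes relative to the rest of the set (log2 CPM minus the mean log2 CPM of the other 25 genes) in each library, numbered within its group. rps12 is apart in atg5 NM library 1, the trans-spliced nad1, nad2 and nad5 are lowest in atg5 WSM library 2, and nad7 and nad4 vary little.

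The copies on chromosome 2 carried counts of their own, from far below to above those of the members. A copy was a listed gene whose protein is at least 80% identical to a mitochondrial one over at least 80% of the shorter. All 15 copies found lie on chromosome 2, 1 of them matching ccmC, and 11 were in both tables. Summed over the libraries in which both are listed, the copy over the member was 0.975 for rps12, 0.981 for nad3, 1.11 for rps4, 1.14 for atp1, 1.18 for cox3, 1.21 for atp8 and 1.22 for the plus-strand atp6. It was 0.0662 for nad1, 0.0904 for nad2, 0.387 for rpl2, 1.499 for rpl5, 1.62 for atp9, 2.18 for rps7 and 3.82 for cob. For nad1, nad2, nad3 and rps7 these are sums over the 5 atg5 libraries, and for the others over all 10. A read that is identical in both places cannot be assigned, so these counts do not show which genome was transcribed. Adding each copy's counts to its member before the fit left 0 members called in all 5 comparisons (edgeR). Of all genes, 3.3% were then higher and 2.62% lower for the WT media, and 5.27% and 2.66% for the atg5 media. Between the genotypes the shares were 0.0914% and 0.0558% in NM and 0.00508% and 0.0305% in WSM. For the difference of the responses 0 genes were called.

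**Figure D5:**
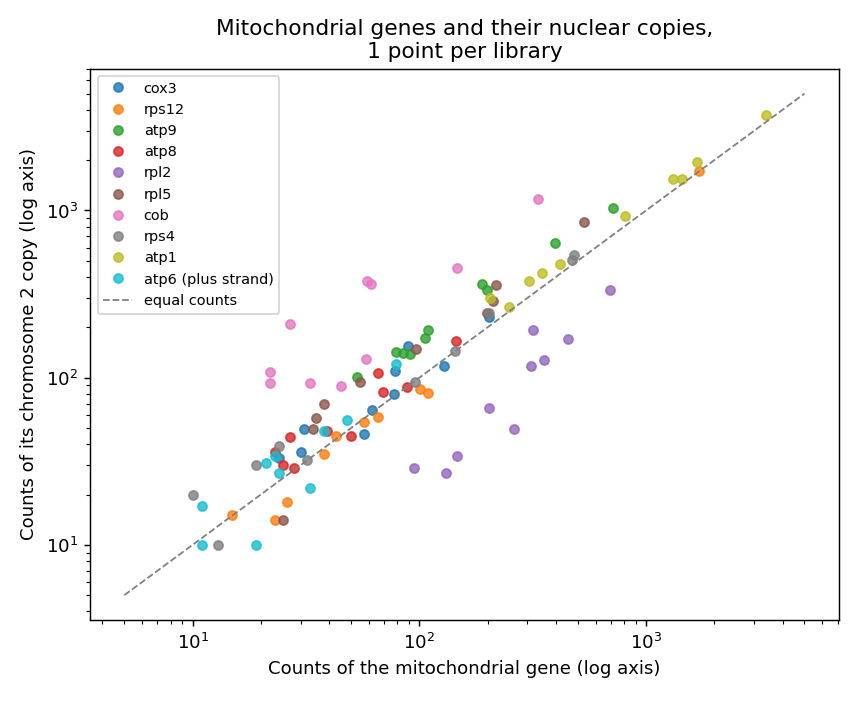
Counts of 10 mitochondrial genes (horizontal, log axis) and of their chromosome 2 copies (vertical, log axis), 1 point per gene and library; the dashed line marks equal counts. rps12 and rps4 lie along the line, cob above it and rpl2 below it.

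Nuclear genes for the same complexes gave negative medians in both genotypes. Of 27 nuclear subunits of complexes I, III and IV and ATP synthase, 0 were higher and 4 lower in WT WSM (edgeR adjusted p under 0.05), beside 3.27% and 2.62% of all genes, with a median log2 of -0.33. GAMMA CAL1 (AT5G63510), a carbonic anhydrase-like subunit of plant complex I, stood at 33.2 and 37.3 CPM in WT WSM, against 80.2, 66.0 and 73.1 CPM in WT NM, and fell by 1.05 ± 0.25 on the log2 scale (edgeR adjusted p = 0.0333). The Rieske protein gene AT5G13440, of complex III, stood at 40.8 and 44.6 CPM in WSM, against 91.7, 105 and 91.0 CPM in NM, and fell by 1.17 ± 0.22 (edgeR adjusted p = 0.0120). AT3G62400, a COX5c gene of complex IV, had 19.6 and 26.2 CPM in WSM, against 58.3, 43.0 and 57.4 CPM in NM, and the cytochrome c1 gene AT3G27240 had a log2 of -0.87 ± 0.23. Fitting the WT libraries alone gave other counts over 31 nuclear genes, the 27 and 4 for mitochondrial transcription and RNA turnover. There 2 were higher and 13 lower, beside 14.1% and 15.3% of all genes. With mitochondrial rRNA as a covariate 0 of the 31 were called, beside 1.6% and 0.35%. Each of the 4 calls was lost without WT WSM library 3 or 4 or WT NM library 2 or 3 (edgeR adjusted p = 0.0629 to 0.317), and with the column number as a block (0.0906 to 0.207).

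In atg5, 1 of the 27 nuclear subunits was lower in WSM and 0 higher, beside 2.64% and 5.22% of all genes, with a median log2 of -0.26. It was the cytochrome c1 gene AT5G40810, at 27.4, 30.1 and 25.3 CPM in WSM, against 43.7 and 74.1 CPM in NM. Its log2 was -1.09 ± 0.24 (edgeR adjusted p = 0.0182), and -0.66 without atg5 NM library 3. The call was lost without atg5 WSM library 3 (edgeR adjusted p = 0.0685) and with the column number as a block (0.0869). It was also lost with the atg5 libraries alone (edgeR adjusted p = 0.194) and with the atg5 table alone (0.202). Between the genotypes and in the difference of the responses 0 of the 27 were called. In the fit of all libraries the 4 genes for mitochondrial transcription and RNA turnover had 0 calls in all 5 comparisons. Their median log2 for WSM over NM was 0.60 in WT and -0.37 in atg5.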

How the data were processed

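For each genotype the authors deposited 1 file of raw counts, which per the file headers also holds their log2 fold changes with adjusted p-values. The tools named in the submitters' processing notes are bcl2fastq, Bowtie2, bedtools and DESeq2, with the genome TAIR10 and no version. Libraries were made with a stranded, poly(A)-selecting kit and read in pairs per the labels' protocols, but AT2G34420 and AT2G08665, on opposite strands, have the same total of 596977 counts, so counting appears to ignore strand. Another 10 columns of normalized values were not used. A member missing from a table has no value there.

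All 10 libraries entered 1 quasi-likelihood model over 19714 genes (R 4.3.3, edgeR 4.0.16 with limma 3.58.1), with 4 groups, TMM factors and 6 residual degrees of freedom; filterByExpr removed 0 genes, and the biological coefficient of variation was 28.2%. A call is a Benjamini-Hochberg adjusted p under 0.05 over all genes. SE is derived from the quasi-likelihood F statistic. CPM per kb uses coding length from RefSeq (TAIR10.1), whose mitochondrial genome has 367808 bases; 20762 of 20780 row names matched it, and sequences are RefSeq's. Edited sites are RefSeq's annotation. Protein copies were found with blastp 2.17.0 among unedited translations. The rRNA regions are 31 genes: those in or within 5 kb of nuclear rRNA, organelle rRNA genes and the plastid tRNA genes between them. The code was tested on simulated counts.

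The members and the nuclear lists were chosen with earlier results of these data known. Members named with values are the 5 highest and 3 lowest per kb, the highest count of each role, and the 3 most and least like the others; rps4, rpl5, rpl2, nad9, nad4, nad4L, cox2, atp8, rps12 and the genes listed for atg5 alone were added after their values were seen, as were PREP1 and the ratio of trans-spliced genes. Nuclear genes named are those called. Nuclear genes used were 10 of 13 listed for complex I, 6 of 7 for complex III, 3 of 5 for complex IV, 8 of 8 for ATP synthase and 4 of 5 for transcription and RNA turnover; the annotation did not bear out the rest. Alternatives were DESeq2 1.42.0, RLE factors, no filter, the groups compared alone, each table alone, rRNA-region genes left out or their ratio as a covariate, the 2 libraries richest in them left out, each library left out, the column number as a block and a fold threshold of 0.5 on the log2 scale. Added after seeing the data were summing members with their copies, mitochondrial rRNA as a covariate, and removing atg5 WSM libraries 1 and 3, chosen by their PREP1 counts. Replicate libraries differed by far more than sampling noise (chi-square per gene 30.4 to 384).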

Additional observations from a re-analysis of the deposited data

How the results depend on the processing

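No member was called in any of the 5 comparisons by the fit of all libraries, nor with RLE factors, without a filter, without rRNA-region genes, with their covariate, without the 2 libraries richest in them, under the fold threshold, with members and copies summed, or with mitochondrial rRNA as a covariate. Calls appeared elsewhere. In WT (WSM over NM) there was 1 with DESeq2 and 12 with the WT libraries alone or the WT table alone. In NM (atg5 over WT) there were 2 with DESeq2. With atg5 WSM libraries 1 and 3 removed, the atg5 log2 (WSM over NM) was -5.02 for nad1, -2.38 for nad2 and -1.65 for nad5. This rests on the single WSM library where all 3 genes were lowest. Leaving out each library in turn gave 0 to 8 calls in WT, 0 to 4 in atg5, 0 to 0 for the difference of the responses, 0 to 8 between genotypes in NM and 0 to 0 in WSM. In atg5 (WSM over NM) rpl16 ranged from -1.23 to 2.70, rps3 from -0.93 to 2.42 and atp1 from -1.02 to 2.21, the highest without NM library 1 and the lowest without NM library 3. Members' medians without 1 library ran from 0.28 to 1.51 in WT, -1.05 to 1.81 in atg5, -1.999 to 0.57 for the difference, -0.59 to 2.16 in NM and -0.46 to 0.76 in WSM. With mitochondrial rRNA as a covariate the median was -0.31 in WT, 0.19 in atg5, 0.24 for the difference of the responses, 0.25 in NM and 0.68 in WSM; the cause was not tested. The labels do not say what a column number shares, and same-numbered libraries did not deviate together. With the replicate block 0 members were called in each comparison, and the share of all genes called was not computed. The members' median with the block was -0.0797 in NM, -0.87 in WSM, 0.28 in atg5 and 1.22 in WT. As shares of all counts, members held 0.0237% and 0.0314% in atg5 WSM libraries 1 and 3, 0.0471% in WT WSM library 3 and 0.0102% and 0.0174% in WT NM libraries 2 and 3. Of 1665 values of named members under an alternative, 1469 kept direction and side of the threshold, 26 passed it, 4 reversed into a call and 166 changed sign without one. The 1469 include the values without a filter and under the fold threshold, which could not differ in either respect. Depth limits the low genes: ccmFN1 had 3 to 122 counts.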
